A study of Mus musculus with 9 samples.

Results

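The Cyp3a subfamily of cytochrome P450 enzymes was followed across liver RNA of 3 mouse models by taking every probe set annotated to Cyp3a11, Cyp3a13, Cyp3a16, Cyp3a25, Cyp3a41a or Cyp3a44. These were 6 genes with 6 probe sets of the 22626 on the array that are not controls. For 5 of them the annotation lists 1 gene, and for 1419704_at it lists both Cyp3a41a and Cyp3a41b. Of the 6, 3 were bright enough to be tested among 13576 probe sets, those of Cyp3a11, Cyp3a13 and Cyp3a25. The probe sets of Cyp3a16, Cyp3a44 and the Cyp3a41 genes were dimmer than that limit.

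The groups were liver-Cpr-null mice, Cpr-low mice and Cpr-lox mice, the control, all of them 2-month-old males on a mixed C57BL/6 and 129/Sv background. Cpr is NADPH-cytochrome P450 reductase, the enzyme that hands electrons to P450 enzymes of the endoplasmic reticulum. Liver-Cpr-null is named for the absence of Cpr from the liver and Cpr-low for a reduced level of Cpr. The Cpr-low reduction is in the whole body, not in the liver alone. Which promoter or Cre line drives the liver deletion was not given in the sources used here. RNA from the livers of 8 or 9 mice of a model was combined into 3 pools, 1 Affymetrix MOE430A array each. It was not stated whether pools share mice, so the p-values cover variation among pools and nothing beyond it.

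Cyp3a enzymes oxidize many drugs, steroid hormones and bile acids, and need Cpr as their electron donor. Their genes are switched on in liver by the pregnane X receptor, PXR (gene Nr1i2), which binds DNA with a retinoid X receptor, and in part by the constitutive androstane receptor, CAR (gene Nr1i3). Cyp3a11 is the main inducible Cyp3a of the adult mouse liver. Cyp3a25 is also an adult liver enzyme, Cyp3a13 is made in liver and gut, Cyp3a16 is a fetal and newborn form, and Cyp3a41 and Cyp3a44 are typical of female liver. In bulk tissue, fewer cells of a type and less RNA per cell cannot be told apart.

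The start-site regions of the 3 tested members and of Cyp3a41a are shown because PXR dimers bind pairs of motifs related to AGGTCA, and these windows differ in how many single matches they hold. No pair or spacing was searched for. Each run below spans 250 bases before to 50 after the start site, 5′ to 3′ on the gene's own strand, from RefSeq's GRCm38.p6. Capitals mark every match to AGGTCA or AGTTCA on either strand (TGACCT or TGAACT when read from the other strand). They lie on the minus strand of chromosome 5, Cyp3a11 at chr5:145879805-145880104, Cyp3a25 at chr5:146009568-146009867, Cyp3a41a at chr5:145720087-145720386 and Cyp3a13 at chr5:137921570-137921869.
Cyp3a11: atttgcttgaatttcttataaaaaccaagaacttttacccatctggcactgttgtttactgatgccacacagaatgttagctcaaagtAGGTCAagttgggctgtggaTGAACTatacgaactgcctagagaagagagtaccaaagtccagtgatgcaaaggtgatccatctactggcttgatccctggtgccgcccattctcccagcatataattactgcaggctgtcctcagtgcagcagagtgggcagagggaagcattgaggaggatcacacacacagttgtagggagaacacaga
Cyp3a25: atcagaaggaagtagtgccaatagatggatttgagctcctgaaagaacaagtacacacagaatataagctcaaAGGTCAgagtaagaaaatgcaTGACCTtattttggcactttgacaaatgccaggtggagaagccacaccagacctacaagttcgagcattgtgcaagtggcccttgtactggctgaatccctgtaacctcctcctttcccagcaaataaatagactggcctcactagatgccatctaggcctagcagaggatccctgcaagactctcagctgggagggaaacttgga
Cyp3a41a: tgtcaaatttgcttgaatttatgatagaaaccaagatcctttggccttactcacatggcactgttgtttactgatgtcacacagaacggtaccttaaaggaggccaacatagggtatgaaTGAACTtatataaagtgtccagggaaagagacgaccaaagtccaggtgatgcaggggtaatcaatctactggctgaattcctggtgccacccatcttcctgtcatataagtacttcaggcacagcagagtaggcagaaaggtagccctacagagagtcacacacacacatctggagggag
Cyp3a13: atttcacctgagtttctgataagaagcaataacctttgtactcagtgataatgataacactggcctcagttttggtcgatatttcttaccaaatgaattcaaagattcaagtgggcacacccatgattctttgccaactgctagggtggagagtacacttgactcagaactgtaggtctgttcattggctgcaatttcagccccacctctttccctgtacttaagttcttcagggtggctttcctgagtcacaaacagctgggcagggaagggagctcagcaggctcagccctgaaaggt

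In the Cyp3a11 window AGGTCA began at -162 from the start site and AGTTCA, on the other strand, at -142. In Cyp3a25 AGGTCA stood at -177 and, on the other strand, at -156. Cyp3a41a held a single AGTTCA match at -130 on the other strand and Cyp3a44 a single AGGTCA at -150, while the windows of Cyp3a13 and Cyp3a16 held neither. AGGTCA occurs in 16.3%, AGTTCA in 14.0% and either of them in 27.7% of the 32851 promoter windows of that length, so a match alone is common. The Cyp3a16, Cyp3a41a and Cyp3a44 windows were 92.1% to 93.4% identical in pairwise alignment, and Cyp3a41a and Cyp3a41b 97.0%. Cyp3a11 shared 74.8% with Cyp3a16, 53.3% with Cyp3a25 and 53.7% with Cyp3a13. Along chromosome 5 Cyp3a13 lies apart, with 208 annotated genes between it and the cluster that holds the other members.

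Deposited array medians were 171 to 179, and after scaling to a common trimmed mean the pools of a model correlated at 0.982 to 0.995 over tested probe sets and pools of different models at 0.968 to 0.987. The run settings record the same hybridization time for the 3 Cpr-lox pools and Cpr-low pool 1, and times 1.7 to 3.22 hours later, on the next calendar date, for the other 5 arrays. Values against Cpr-lox with that date as a block therefore rest on Cpr-low pool 1. The first scan date holds Cpr-lox arrays alone, so effects of scanning and of the control model cannot be told apart. The ratio of 3′ to 5′ probe sets of Actb, a measure of RNA integrity and of labelling length, was 1.62 to 1.99 in liver-Cpr-null pools, 1.17 to 1.26 in Cpr-low pools and 1.23 to 1.43 in Cpr-lox pools. For Gapdh the highest ratio was 2.48 in liver-Cpr-null pools, 2.72 in Cpr-low pools and 2.79 in Cpr-lox pools. Hepatocyte markers (8 tested of 10 listed) summed to 146873 to 149853 in liver-Cpr-null, 162203 to 171550 in Cpr-low and 160060 to 165972 in Cpr-lox. Of these, 0 rose and 3 fell in liver-Cpr-null against Cpr-lox, and 0 fell once the date was fitted as a block. Over all 8879 tested genes 3.41% rose and 3.28% fell in that comparison, or 0.552% and 0.957% under the date block. Kupffer cell markers (10 tested of 10) summed to 7963 to 10648 in liver-Cpr-null, 5313 to 5888 in Cpr-low and 5682 to 6172 in Cpr-lox. Of these markers, 8 rose and 0 fell in liver-Cpr-null against Cpr-lox, or 1 rose once the date was fitted as a block. In liver-Cpr-null against Cpr-low 7 rose and 0 fell, both with and without the date block. Without the block 4.44% of all tested genes rose and 3.62% fell in that comparison. Endothelial markers had 0 of 4 tested members called in liver-Cpr-null against Cpr-lox (0 at an unadjusted p under 0.05), stellate cell markers 1 of 5, cholangiocyte markers 0 of 2 (0 unadjusted) and lymphocyte markers 1 of 3. The stellate and lymphocyte calls were Col3a1 and Ptprc, both higher, and both were lost under the date block (adjusted p = 0.114 and 0.166). Among enterocyte markers, listed because Cyp3a11 and Cyp3a13 are also made in gut, 2 of 4 were tested and summed to 757 to 997 in liver-Cpr-null, 1126 to 1201 in Cpr-low and 2330 to 2686 in Cpr-lox. Of those 2, 0 rose and 1 fell against Cpr-lox in each Cpr-deficient model. Over all tested genes 3.28% fell in liver-Cpr-null and 3.16% in Cpr-low. The marker that fell was Fabp2, an intestinal fatty acid-binding protein. Fabp2 changed by -1.65 in liver-Cpr-null and by -1.24 in Cpr-low on the log2 scale against Cpr-lox (limma, adjusted p = 1.02e-05 and 1.72e-04). The other tested enterocyte marker had no unadjusted p under 0.05 in either comparison. No marker was at 0, since array signals have a floor of 25 or 26. The part of these differences in the Cyp3a results was not tested.

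Cyp3a11 and Cyp3a25 were higher in liver-Cpr-null livers than in Cpr-lox livers, by 1.29-fold and 1.26-fold, and Cyp3a11 was also higher in Cpr-low livers, by 1.24-fold. Cyp3a13 passed no comparison. Signals are scaled array intensities, with mean ± SD over 3 pools, and log2 fold changes with SE are on the log2(signal + 16) scale. Signals of different probe sets are not compared with each other. The call used limma over all tested probe sets at an adjusted p below 0.05.

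Cyp3a11 gave signals of 19774, 19290 and 19544 in liver-Cpr-null pools, 18767, 17847 and 19795 in Cpr-low pools and 15665, 14873 and 14999 in Cpr-lox pools. Every liver-Cpr-null and Cpr-low pool exceeded every Cpr-lox pool, while liver-Cpr-null and Cpr-low pools overlapped. The mean was 19536 ± 242 in liver-Cpr-null, 18803 ± 974 in Cpr-low and 15179 ± 426 in Cpr-lox (SD, n = 3 each). The array maxima were 29334 to 31783 in deposited units, and whether this bright probe set was near saturation was not tested. Against Cpr-lox, the log2 fold change was 0.36 ± 0.05 in liver-Cpr-null (95% interval 0.25 to 0.48, limma adjusted p = 0.00119). It was 0.31 ± 0.05 in Cpr-low (interval 0.20 to 0.42, adjusted p = 0.00392). Both comparisons share the Cpr-lox pools. When the hybridization date was a block, the liver-Cpr-null value stayed 0.36 with a larger error of 0.09 and lost its call (adjusted p = 0.0817), and the Cpr-low value of 0.31 kept it (adjusted p = 0.0254). Within the first date alone, where Cpr-low is pool 1, the Cpr-low value of 0.31 had an adjusted p of 0.0678. With scaling to a common median the Cpr-low value was 0.26 (adjusted p = 0.0552). Liver-Cpr-null against Cpr-low differed by 0.06 ± 0.05 (interval -0.06 to 0.17, adjusted p = 0.452).

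Cyp3a25 gave 11254, 10545 and 11288 in liver-Cpr-null, 9650, 10173 and 11383 in Cpr-low and 7960, 9092 and 9267 in Cpr-lox pools. The pools of both Cpr-deficient models lay above all Cpr-lox pools, and they overlapped each other. The mean was 11029 ± 420 in liver-Cpr-null, 10402 ± 889 in Cpr-low and 8773 ± 709 in Cpr-lox (SD, n = 3 each). Against Cpr-lox, the log2 fold change in liver-Cpr-null was 0.33 ± 0.08 (95% interval 0.16 to 0.50, limma adjusted p = 0.0215). This call was lost under the date block, where the value was 0.18 (adjusted p = 0.499), with the deposited scaling (0.36, 0.052), with scaling to a common median (0.37, 0.0916), and without Cpr-lox pool 1 (0.26, 0.0899), liver-Cpr-null pool 1 (0.32, 0.0856) or liver-Cpr-null pool 3 (0.32, 0.0778). In Cpr-low the difference was 0.25 ± 0.08 (interval 0.08 to 0.41), which did not pass (adjusted p = 0.0963). Liver-Cpr-null against Cpr-low differed by 0.09 ± 0.08 (interval -0.08 to 0.25, adjusted p = 0.439).

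Cyp3a13 gave 2132, 1827 and 1857 in liver-Cpr-null, 1299, 1455 and 1753 in Cpr-low and 1377, 1743 and 1907 in Cpr-lox pools. Liver-Cpr-null pools lay above all Cpr-low pools, as did 11.4% of tested probe sets, and both overlapped Cpr-lox. The mean was 1939 ± 168 in liver-Cpr-null, 1502 ± 231 in Cpr-low and 1676 ± 271 in Cpr-lox (SD, n = 3 each). Against Cpr-lox the log2 fold change was 0.22 ± 0.13 in liver-Cpr-null (95% interval -0.07 to 0.50, limma adjusted p = 0.446). It was -0.15 ± 0.13 in Cpr-low (interval -0.44 to 0.13, adjusted p = 0.576). Under the date block the liver-Cpr-null value was -0.08 (adjusted p = 0.875). Liver-Cpr-null against Cpr-low differed by 0.37 ± 0.13 (interval 0.09 to 0.66), with an unadjusted p of 0.0152 and an adjusted p of 0.105. That difference was called under 1 of 22 alternatives, without Cpr-low pool 3 (0.49, limma adjusted p = 0.0382). It was 0.27 under the date block (adjusted p = 0.31), 0.30 with quantile scaling (0.18) and 0.30 without liver-Cpr-null pool 1 (0.295).

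**Figure D1:**
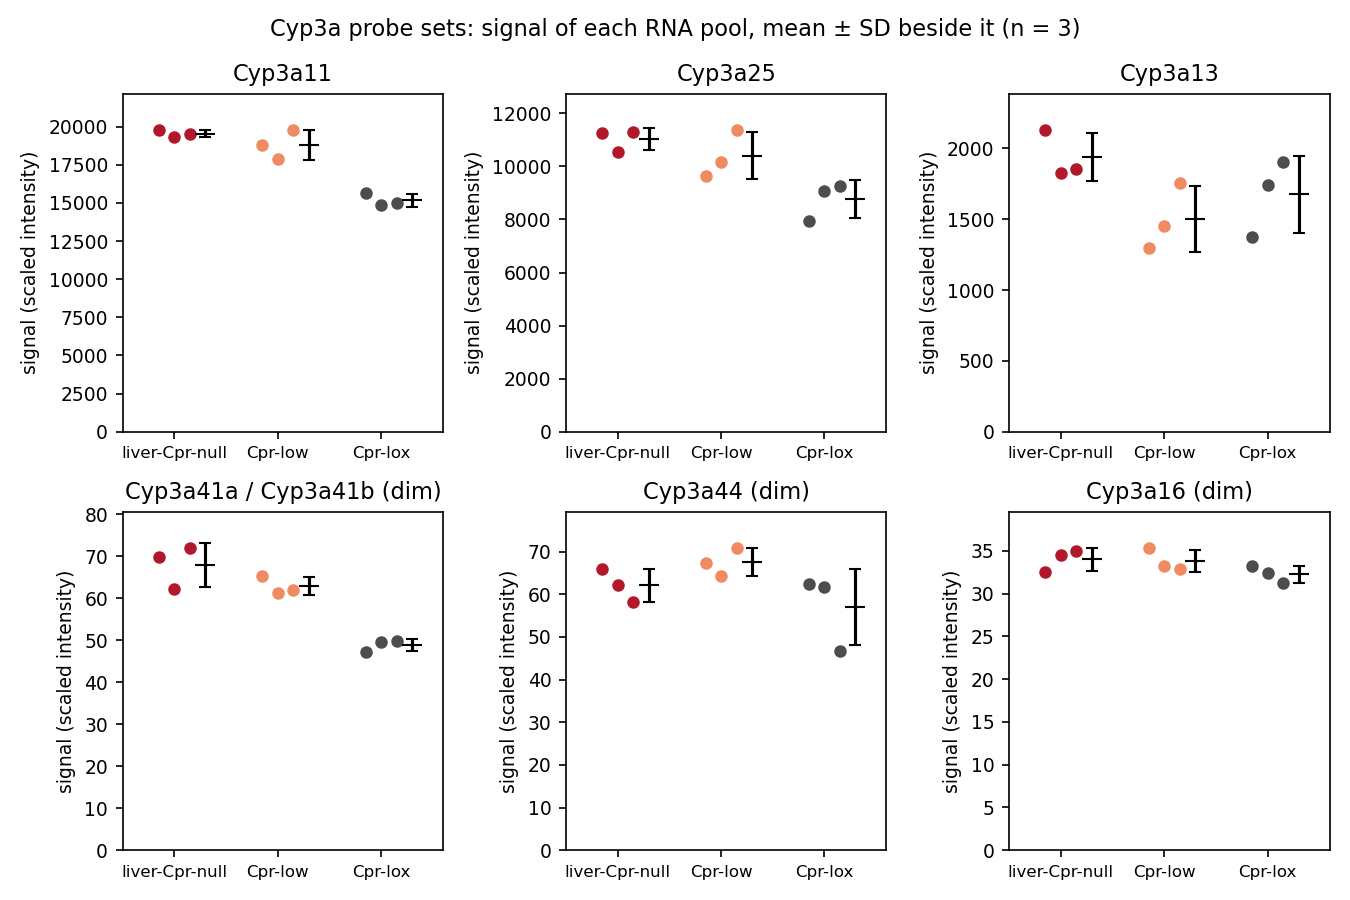
Scaled signal of each pool (points) and mean ± SD of 3 pools (lines beside them) for the 6 Cyp3a probe sets, 1 panel each with its own axis, in each of the 3 models. Cyp3a11 and Cyp3a25 points of both Cpr-deficient models lie above every Cpr-lox point, Cyp3a13 points overlap Cpr-lox, and the Cyp3a16 points of all models overlap.

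In all, 2 of the 3 tested members rose and 0 fell in liver-Cpr-null against Cpr-lox, where 3.6% of all tested probe sets rose and 3.1% fell (6.7% in all). In Cpr-low against Cpr-lox 1 of 3 rose and 0 fell, against 2.14% and 3.18% (5.33% in all). Between liver-Cpr-null and Cpr-low 0 of 3 were called by limma, with 1 at an unadjusted p under 0.05, against 4.86% higher and 3.43% lower, or 8.29% called in either direction. Pools that did not overlap, higher, were found for 2 of 3 tested members against Cpr-lox in liver-Cpr-null and 2 of 3 in Cpr-low, and in 10.4% and 10.7% of all tested probe sets. The members' change was compared within arrays by exact two-sided permutation tests over 3 pools against 3, which cannot give a p below 0.1. In these exact tests the log2 ratio of Cyp3a13 to Cyp3a25 differed by -0.40 in Cpr-low against Cpr-lox (p = 0.1) and by 0.28 in liver-Cpr-null against Cpr-low (p = 0.1). By the same exact test the log2 ratio of Cyp3a11 to Cyp3a25 differed by 0.03 in liver-Cpr-null against Cpr-lox (p = 0.9) and by 0.06 in Cpr-low (p = 0.6). The log2 ratio of Cyp3a11 to Cyp3a13 differed by -0.32 in liver-Cpr-null against Cpr-low (exact test, p = 0.1). After adjustment over 9 such tests every p was at least 0.3. Since no p below 0.1 was possible, these tests could not have passed at 0.05, whatever the members did.

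**Figure D2:**
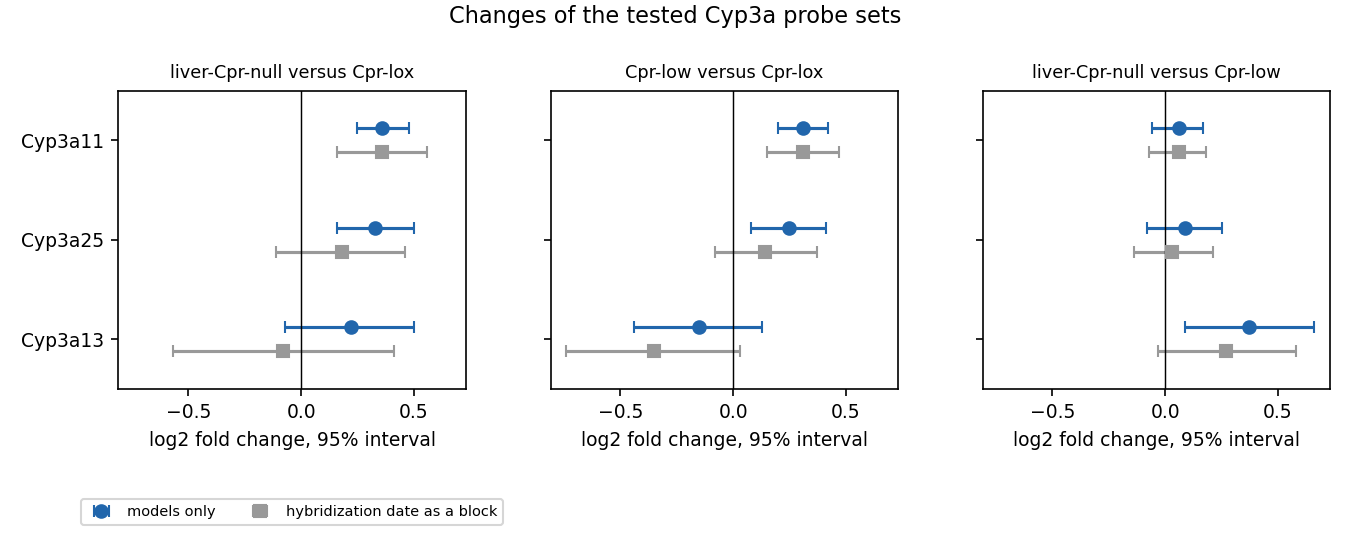
Log2 fold change with 95% interval of the 3 tested members, for liver-Cpr-null against Cpr-lox, Cpr-low against Cpr-lox and liver-Cpr-null against Cpr-low, fitted with the models alone and with the hybridization date as a block. Intervals against Cpr-lox are wider with the date, and Cyp3a13 in liver-Cpr-null against Cpr-lox crosses to -0.08.

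The probe set shared by Cyp3a41a and Cyp3a41b, genes typical of female liver, was dim. It gave 69.8, 62.1 and 71.9 in liver-Cpr-null, 65.3, 61.3 and 61.9 in Cpr-low and 47.3, 49.6 and 49.7 in Cpr-lox pools. Pools of both Cpr-deficient models lay above all Cpr-lox pools and overlapped each other. Such separation upward from Cpr-lox was found for 7.22% of all probe sets in liver-Cpr-null and 8.96% in Cpr-low. With no limit on brightness, 22626 probe sets were fitted, and 3.88% were called in either direction in liver-Cpr-null and 2.96% in Cpr-low against Cpr-lox. There the log2 fold change against Cpr-lox was 0.37 ± 0.05 in liver-Cpr-null (limma adjusted p = 0.001) and 0.28 ± 0.05 in Cpr-low (adjusted p = 0.00848). Between liver-Cpr-null and Cpr-low it was 0.09 ± 0.05 (adjusted p = 0.285), where 4.7% were called. Since the pseudocount of 16 is a large share of such signals, these values understate the ratio of the signals, and the authors' background step is not given.

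Cyp3a44, another gene typical of female liver, gave 65.9, 62.1 and 58.3 in liver-Cpr-null, 67.4, 64.3 and 70.8 in Cpr-low and 62.4, 61.8 and 46.8 in Cpr-lox pools. Liver-Cpr-null overlapped Cpr-lox, and Cpr-low lay above it. Without the limit, limma gave 0.10 ± 0.08 in liver-Cpr-null (adjusted p = 0.652) and 0.20 ± 0.08 in Cpr-low (adjusted p = 0.247) against Cpr-lox. Liver-Cpr-null against Cpr-low differed by -0.10 ± 0.08 (adjusted p = 0.383). Cyp3a16, the fetal and newborn form, gave 32.5, 34.5 and 35.0 in liver-Cpr-null, 35.3, 33.2 and 32.9 in Cpr-low and 33.2, 32.4 and 31.2 in Cpr-lox pools. These lie close to the array floor of 25 or 26 and overlap between all models. Its values were 0.05 ± 0.04 in liver-Cpr-null (adjusted p = 0.635) and 0.05 ± 0.04 in Cpr-low (adjusted p = 0.616) against Cpr-lox. Between liver-Cpr-null and Cpr-low it was 0.00 ± 0.04 (adjusted p = 0.926). Apart from Cyp3a41b, the array annotation used here names no further Cyp3a gene. RefSeq also lists Cyp3a57 and Cyp3a59, whose start-site windows were 89.1% and 96.3% identical to that of Cyp3a25. Whether such near-copies add to the Cyp3a25 signal was not tested.

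The PXR and CAR pathway was described by genes outside Cyp3a known to be induced through these receptors, from a list chosen with earlier results of these data known. Of 29 tested list members, 24 rose and 0 fell in liver-Cpr-null against Cpr-lox, beside 3.41% of 8879 tested genes that rose and 3.28% that fell. In Cpr-low against Cpr-lox 17 rose and 1 fell, beside 2.2% and 3.16%. The list's median log2 fold change was 0.86 in liver-Cpr-null and 0.49 in Cpr-low, against -0.04 and 0.04 over all genes. Between liver-Cpr-null and Cpr-low 17 rose and 0 fell, beside 4.44% and 3.62%. With the date as a block, 12 rose and 0 fell in liver-Cpr-null against Cpr-lox, beside 0.552% and 0.957% of all tested genes. Under that block 13 rose and 1 fell in Cpr-low against Cpr-lox, beside 6.42% and 5.03%. Cyp2b10, a P450 that CAR induces strongly in mouse liver, had 3 tested probe sets, and the brightest, 1422257_s_at, gave 10964, 8017 and 9886 in liver-Cpr-null, 3051, 3792 and 3356 in Cpr-low and 291, 659 and 828 in Cpr-lox pools. Against Cpr-lox the log2 fold change on it was 4.10 ± 0.28 in liver-Cpr-null and 2.61 ± 0.28 in Cpr-low (limma adjusted p = 4.67e-06 and 2.43e-04). The other Cyp2b10 probe sets gave 4.26 ± 0.46 in liver-Cpr-null and 2.89 ± 0.46 in Cpr-low (1425645_s_at), and 3.15 ± 0.14 in liver-Cpr-null and 1.72 ± 0.14 in Cpr-low (1451787_at). On each of the 3 the pools of the models did not overlap. Ces2a, a carboxylesterase, rose by 1.81 ± 0.08 in liver-Cpr-null and 0.96 ± 0.08 in Cpr-low (adjusted p = 1.70e-07 and 9.99e-05), and Slco1a4, a hepatic organic anion importer, by 1.82 ± 0.09 in liver-Cpr-null and 0.51 ± 0.09 in Cpr-low (2.53e-07 and 0.00553).

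Most of these genes had larger log2 fold changes than the Cyp3a members. Of the 29 list members, 26 had a larger log2 fold change than Cyp3a11 in liver-Cpr-null against Cpr-lox, and 19 had one in Cpr-low. For Cyp3a25 the counts were 26 and 21. Cyp3a11 and Cyp3a25 lay at percentiles 99.9 and 99.5 of mean log2 signal. Whether such brightness limits the size of their fold changes was not tested.

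**Figure D3:**
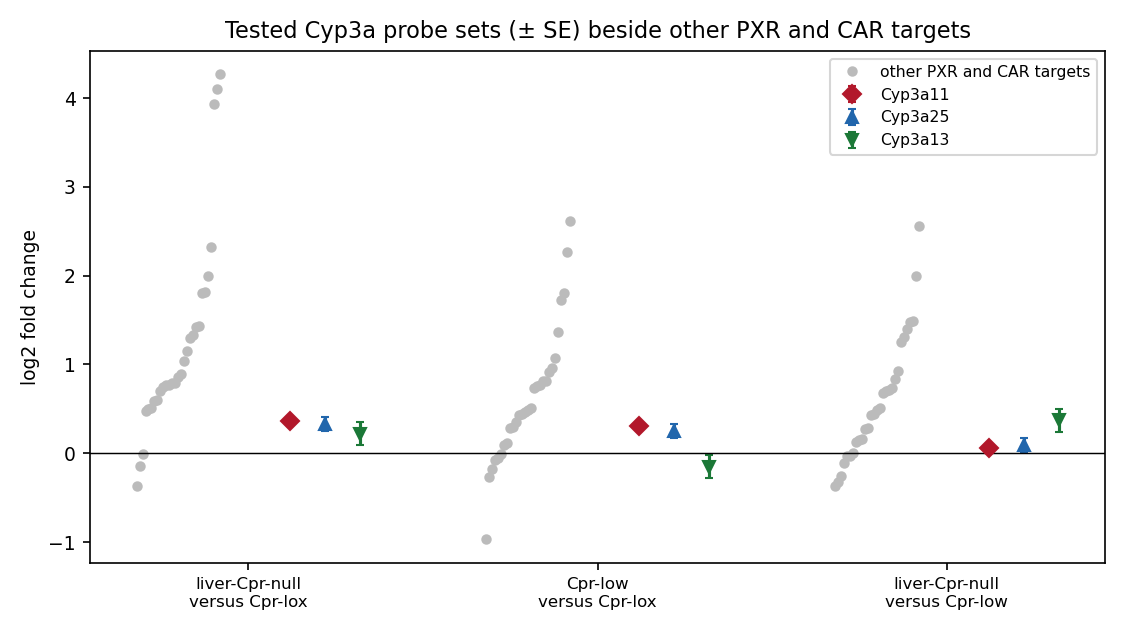
Log2 fold changes of the 29 tested PXR and CAR targets outside Cyp3a (grey points, sorted by size) and of the 3 tested Cyp3a members (symbols with SE), for the 3 comparisons. In liver-Cpr-null against Cpr-lox 26 of 29 targets lie above Cyp3a11, over a range of -0.37 to 4.27, and in Cpr-low against Cpr-lox 19 of 29 do.

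The receptors themselves did not pass. Nr1i2, which encodes PXR, had 2 tested probe sets, and the brighter, 1451807_at, gave 321, 332 and 336 in liver-Cpr-null, 450, 326 and 337 in Cpr-low and 375, 373 and 400 in Cpr-lox pools. On it liver-Cpr-null pools lay below all Cpr-lox pools, with a log2 fold change of -0.21 ± 0.10 in liver-Cpr-null (limma adjusted p = 0.331) and -0.06 ± 0.10 in Cpr-low (0.795). On the other, 1425723_at, liver-Cpr-null pools at 163, 185 and 157 overlapped Cpr-lox pools at 169, 180 and 180, with -0.06 ± 0.09 (adjusted p = 0.787). Nr1i3, which encodes CAR, gave 1222 to 1324 in liver-Cpr-null, 1261 to 1473 in Cpr-low and 1485 to 1647 in Cpr-lox pools. Its pools of both Cpr-deficient models thus lay below all Cpr-lox pools. The share of all probe sets with such downward separation was not counted. Nr1i3 differed by -0.30 ± 0.08 in liver-Cpr-null (limma adjusted p = 0.0543) and -0.24 ± 0.08 in Cpr-low (0.137). The glucocorticoid receptor gene Nr3c1 differed by -0.23 ± 0.09 in liver-Cpr-null (0.157) and -0.07 ± 0.09 in Cpr-low (0.675) on 1421867_at. On 1460303_at it differed by -0.19 ± 0.13 in liver-Cpr-null (0.522) and -0.10 ± 0.13 in Cpr-low (0.712). Of 26 tested regulators of the pathway, 0 rose and 4 fell in liver-Cpr-null, where 3.28% of all tested genes fell. With the date as a block 1 of them fell, where 0.957% of all fell. In Cpr-low 0 rose and 1 fell, where 3.16% of all fell, or 4 with the date, where 5.03% of all fell. Hnf4a, a liver transcription factor that Cyp3a genes need, fell by 0.46 ± 0.07 on the log2 scale in liver-Cpr-null (adjusted p = 0.00206), and still did under the date block (0.0232). Nr0b2, a corepressor of nuclear receptors, fell by 1.15 ± 0.20 (adjusted p = 0.00414), and this call was lost with the date (0.18).

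Growth hormone sets the sex-specific Cyp3a forms, so genes of that axis were counted, beside 3.41% of all tested genes that rose and 3.28% that fell in liver-Cpr-null (0.552% and 0.957% under the date block). In Cpr-low 2.2% rose and 3.16% fell (6.42% and 5.03% under the date block). Of 15 tested male-biased genes 0 rose and 6 fell in liver-Cpr-null against Cpr-lox, or 1 rose and 2 fell with the date as a block. In Cpr-low 0 rose and 2 fell, or 3 and 3 with the date. Between liver-Cpr-null and Cpr-low 0 rose and 7 fell, beside 4.44% and 3.62% of all tested genes. With the date these counts were 0 and 8, and the share over all genes was not counted. Hsd3b5, a male-specific steroid dehydrogenase, gave 146, 123 and 129 in liver-Cpr-null, 2476, 1379 and 780 in Cpr-low and 684, 341 and 896 in Cpr-lox pools. It fell by 2.04 ± 0.37 on the log2 scale in liver-Cpr-null (limma adjusted p = 0.00519), a call lost with the date (0.451). Its Cpr-low pools overlapped the Cpr-lox pools. In liver-Cpr-null against Cpr-low its log2 fold change was -3.24 ± 0.37 (limma adjusted p = 4.13e-04). Of 9 tested female-biased genes 0 rose and 3 fell in liver-Cpr-null, or 2 fell with the date, and 1 rose and 4 fell in Cpr-low, or 0 and 4. Among 16 growth hormone signalling genes 0 rose and 3 fell in liver-Cpr-null, or 1 with the date, and 1 rose and 3 fell in Cpr-low, or 0 and 3. Stat5b, the main signal carrier of growth hormone, differed by -0.04 ± 0.07 in liver-Cpr-null (limma adjusted p = 0.812) and 0.07 ± 0.07 in Cpr-low (0.609) on 1422103_a_at. On its other tested probe set, 1422102_a_at, it differed by -0.10 ± 0.08 in liver-Cpr-null (0.626) and 0.14 ± 0.08 in Cpr-low (0.431). Of 10 fetal liver genes 0 were called by limma in either comparison, with 1 in liver-Cpr-null and 0 in Cpr-low at an unadjusted p under 0.05, and with the date 1 rose in Cpr-low.

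The same shares over all tested genes stand beside the counts of other genes around Cyp3a function. Among 16 other electron donors and heme supply genes, 5 rose and 0 fell in liver-Cpr-null, or 2 and 1 with the date as a block, and 3 rose and 0 fell in Cpr-low, or 2 and 1. Cyb5r3, the reductase of cytochrome b5, rose by 0.67 ± 0.07 in liver-Cpr-null and 0.73 ± 0.07 in Cpr-low (limma adjusted p = 2.32e-04 and 1.73e-04). Cyb5a, cytochrome b5 itself, which can pass an electron to P450 enzymes, rose by 0.26 ± 0.05 in liver-Cpr-null (0.0123), a call lost under the date block (0.0901), and differed by 0.16 ± 0.05 in Cpr-low (0.12). Of 17 genes of bile acid and steroid metabolism, the pathways of Cyp3a substrates, 5 rose and 5 fell in liver-Cpr-null, or 1 and 1 with the date, and 4 rose and 3 fell in Cpr-low, or 5 and 4. Cyp7a1, which sets the pace of bile acid synthesis, rose by 2.28 ± 0.16 in liver-Cpr-null and 0.97 ± 0.16 in Cpr-low (adjusted p = 5.30e-06 and 0.00317), while Cyp7b1, an oxysterol hydroxylase, changed by -1.70 ± 0.13 in liver-Cpr-null and -1.09 ± 0.13 in Cpr-low (1.40e-05 and 5.50e-04). Of 17 inflammatory and acute-phase genes, listed because inflammation lowers P450 expression, 0 rose and 1 fell in each comparison with Cpr-lox. In liver-Cpr-null it was Il1r1, an interleukin receptor (-0.80 ± 0.18, adjusted p = 0.0193, lost under the date block at 0.186), and in Cpr-low Saa1, a serum amyloid (-2.00 ± 0.44, adjusted p = 0.0193, lost at 0.0813).

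The probe sets whose log2 signals were most like those of each tested member over the 9 arrays were found as a description, and the differences between models enter every correlation. Closest to Cyp3a11 were Tkt, a transketolase (Pearson r = 0.989), Gstm1 (0.973) and Gsta4 (0.969), both glutathione transferases. Closest to Cyp3a25 were Fkbp9 (0.963), a prolyl isomerase, Pgrmc1 (0.955), a heme-binding partner of P450 enzymes, and Arf1 (0.954). Closest to Cyp3a13 were Uso1 (0.978), a vesicle tether, Psmc6 (0.972) and Ppp1cc (0.958). Cyp3a11 and Cyp3a25 correlated at 0.845, Cyp3a13 and Cyp3a25 at 0.557, and Cyp3a11 and Cyp3a13 at 0.18.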

How the data were processed

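Liver RNA pools of 3 models were measured on Affymetrix MOE430A arrays, per the file headers, from 5 micrograms of total RNA per the labels. The authors deposited a whole-number signal intensity per probe set; how probes were summarised, background corrected and scaled was not given in the sources used here. Trimmed means (2%) of the deposited signals differed by 10.2%, above a tolerance of 5%, so signals were scaled to a common trimmed mean. Genes came from GEO's platform annotation, which can be old. The number of arrays limits the precision.

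The brighter 60% of probe sets, ranked on average log2(signal + 16), were tested in 1 fit of 9 arrays (limma 3.58.1 in R 4.3.3, intensity trend, two-sided, Benjamini-Hochberg). Genes were counted by their brightest tested probe set. Alternatives changed the pseudocount, scaling, filter, trend, arrays and blocks, and left out each pool. On simulated data with independent noise and no date effect, the fit recovered most 2-fold changes but missed more 1.3-fold changes than it recovered. A member without a call may therefore still differ by such an amount. Promoter windows were RefSeq's GRCm38.p6, aligned globally with Biopython 1.88, and figures used matplotlib 3.10.9 under Python 3.11.15.

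Genes named were the members, up to 6 genes per list with the smallest adjusted p, the defining genes Nr1i2, Nr1i3, Cyp2b10, Hsd3b5, Cyb5a, Stat5b and Nr3c1, and the 3 probe sets most like each member. The members and lists were chosen with earlier results of these data known. Cpr's own gene was not analysed here and gave no check of the model labels.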

Additional observations from a re-analysis of the deposited data

Results flagged for a closer look

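The dim probe set 1419704_at, annotated to Cyp3a41a and Cyp3a41b, lies outside the tested probe sets, and its signal was above that of the Cpr-lox control pools. Fitted without a limit on brightness, its log2 fold change against Cpr-lox was 0.37 in liver-Cpr-null and 0.28 in Cpr-low. With the hybridization date as a block, a combination chosen after seeing the data, it was 0.44 in liver-Cpr-null (limma adjusted p = 0.038) and 0.33 in Cpr-low (adjusted p = 0.0162). Signals of 61.3 to 71.9 in both Cpr-deficient models and 47.3 to 49.7 in Cpr-lox are dim, and the part of near-copies in them was not tested.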

How the results depend on the processing

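Settings moved the count of members called as follows. In liver-Cpr-null against Cpr-lox, 2 were called, 1 with the deposited or median scaling, 0 with the date as a block, 3 with no filter, and 1 to 2 when a pool was left out. In Cpr-low against Cpr-lox, 1 was called, 0 with median scaling or within the first date, 2 with no filter, and 2 with the pool number as a replicate block, where Cyp3a25 was 0.25 (limma adjusted p = 0.0487). In liver-Cpr-null against Cpr-low, 0 were called, and 0 to 1 when a pool was left out. Correlations of deviations between pools of the same number in different models ran from -0.213 to 0.493. Pools of different numbers were not compared, so these values cannot show whether pool numbers pair the samples. Of the direction changes, Cyp3a13 in liver-Cpr-null against Cpr-lox was -0.08 with the date, Cyp3a44 in the same comparison was -0.00 without Cpr-lox pool 3, with no filter, and Cyp3a16, with no filter, between liver-Cpr-null and Cpr-low was -0.01 to 0.03 when a pool was left out, with -0.00 among them. Every setting that joins no filter with another change was chosen after seeing the data. The probe set of the Cyp3a41 genes in Cpr-low against Cpr-lox was 0.24 with median scaling and no filter (limma adjusted p = 0.0515). The cause was not tested. Cyp3a11 in liver-Cpr-null against Cpr-lox kept its direction under all 21 alternatives and its call under 20. Signals near the array floor, and an unknown background step, limit the dim members.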
